A study of Mus musculus with 14 samples.

Results

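The 10 genes described here belong to the bone morphogenetic protein (BMP) pathway. They are the ligand genes Bmp2, Bmp4 and Bmp7, the receptor gene Bmpr1a, the target genes Id1, Id2, Id3 and Id4, and the genes of the inhibitors Smad6 and Nog. They were chosen by name. All 10 were found among the 21938 protein-coding genes of GENCODE M21 on chromosomes 1 to 19, X and Y. Every peak and island of 5 antibodies was placed in the gene region of each gene, which runs from 1 kb upstream of the start site to the end of the gene, and in 20 kb on both sides of it.

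The cells were 81K1 mouse embryonic stem cells (ESC), a line made from the OG2 line by inserting a doxycycline-inducible shRNA against Smarcb1 into the Rosa26 locus. Control cells carry the same shRNA and were left untreated, whereas Smarcb1 kd cells received 1 µg/ml doxycycline for 72 h. Both grew on gelatine in serum with leukaemia inhibitory factor, and no doxycycline-treated cells without the shRNA enter these comparisons. Chromatin immunoprecipitation followed by sequencing (ChIP-seq) gave 1 library per condition for each of Smarca4, Ezh2, H3K27me3, H3K27ac and H3K4me3, beside 4 background libraries. With 1 library per group there is no replicate error and no test between conditions. All differences below compare lists of called regions from single libraries of 1 line, and are read beside the share of all protein-coding genes that behave in the same way.

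BMP ligands bind receptor pairs at the cell surface, of which Bmpr1a is a type I receptor, and the receptors phosphorylate Smad1, Smad5 and Smad9. These enter the nucleus with Smad4 and bind DNA, for which the Id genes are the best known targets. Id proteins hold back differentiation factors of the basic helix-loop-helix type, and in mouse ESC cultures BMP together with leukaemia inhibitory factor is known to sustain self-renewal through them. Smad6 blocks the receptors inside the cell and is itself a BMP target, and Noggin, the product of Nog, traps the ligands outside. Smarca4 is the ATPase of the BAF remodelling complex that also holds Smarcb1, and Ezh2 is the methyltransferase of Polycomb repressive complex 2 (PRC2), which writes H3K27me3. H3K4me3 marks promoters and H3K27ac marks active promoters and enhancers. A gene that carries H3K4me3 and H3K27me3 together is commonly called bivalent.

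The lists held between 5364 (Ezh2, kd) and 79014 (Smarca4, control) regions. The read depth behind them is unknown here. The Ezh2 lists differed in makeup, since 45.9% of the control peaks and 3.24% of the kd peaks lay in sequence of which at least 50% was repeat-masked. For Smarca4 this share was 9.52% in control and 19.8% after kd, and for H3K27ac it was 79.1% and 74.1%. Around the 10 genes no Smarca4 peak was repeat-masked in this sense (0 of 104 in control and 0 of 83 after kd), against 1 of 10 and 0 of 19 Ezh2 peaks and 4 of 9 and 12 of 17 H3K27ac islands. Counts of members were repeated without repeat-masked regions, and all stayed within 1.5 times the reported count. The part of these differences in scores and places in the list was not tested. Of 8 pluripotency markers, 7 carried H3K4me3 within 1 kb of the start site in both conditions. The exception, Esrrb, carried H3K27me3 there in both. H3K4me3 also lay at 3 of 4 neural and 3 of 3 mesoderm markers in both lists. It lay at 1 of 6 fibroblast and 1 of 4 endoderm markers in control, and at 3 and 2 after kd. H3K27ac was found at 6 of the 8 pluripotency markers in control and 7 after kd. It was at 0 of 6 fibroblast, 0 of 4 endoderm and 0 of 3 mesoderm markers in either list. Of 4 neural markers 0 carried it in control and 1, Sox1, after kd.

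Smarca4 and H3K4me3 were present at all 10 genes in both conditions. In control, Smarca4 peaks lay in 70.3% of protein-coding gene regions and H3K4me3 islands in 63.4%, and after kd in 71.7% and 68.1%. No member gained or lost a Smarca4 call, where 2.45% of protein-coding genes had one in control alone and 3.85% after kd alone. The same held for H3K4me3, where the shares were 0.825% and 5.49%.

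Ezh2 was called at 4 members in control (Bmp2, Bmp7, Smad6 and Nog), beside 12.6% of protein-coding genes. After kd it was called at 8, beside 15.4%. The 4 additional genes were Bmp4, Id2, Id3 and Id4, and 5.96% of all protein-coding genes had an Ezh2 peak after kd alone. No member had one in control alone, which 3.19% of genes did. Bmpr1a and Id1 had no Ezh2 peak in either list, also not within 20 kb. With these 20 kb counted, Ezh2 after kd alone was left at Id4 only, since Bmp4, Id2 and Id3 had a control peak there.

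H3K27me3 islands overlapped 9 members in control, all except Bmpr1a, beside 42.4% of protein-coding genes. After kd there were 8, beside 35.6%. Id1 was the member with an island in control alone, a state shared by 9.74% of genes, and no member had one after kd alone, a state of 2.95%. H3K27ac was called in the gene region of Bmpr1a alone among the members, in control (32.4% of genes) and after kd (48.2%). No other member gained an H3K27ac call in its gene region, which 18.9% of protein-coding genes did, and none lost one (3.06%). With so few genes this is not read as a difference from the general share. Bmpr1a, already called in control, had further islands in its gene region after kd alone, as described below.

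**Figure D1:**
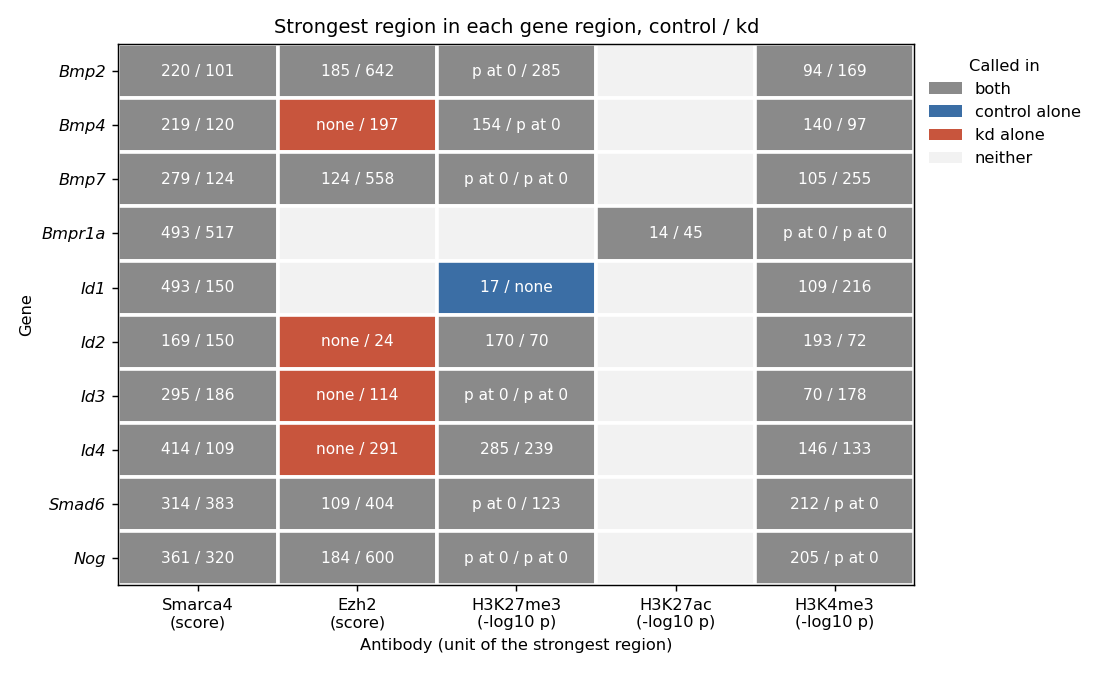
Strongest region in the gene region of each of the 10 genes (rows) for each antibody (columns), control value before the slash and kd value after it. Colours show whether a region was called in both lists, in control alone, after kd alone or in neither. Smarca4 and Ezh2 values are MACS2 scores, the others -log10 of the SICER p-value, with "p at 0" where the p-value is deposited as 0. The 4 kd-alone cells are Ezh2 at Bmp4, Id2, Id3 and Id4, and the single control-alone cell is H3K27me3 at Id1.

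The score of a peak is a whole number given by the peak caller and is not scaled between libraries. Its place in its own list, as the percent of peaks with a lower score, is therefore given beside many of the scores. Scores given without their places do not by themselves show a change between the conditions. The place does not correct for the repeat-masked share, which differs between the lists. For islands the -log10 of the deposited p-value is used, and a p-value deposited as 0 is named as such. It is not scaled between libraries either. Of the H3K4me3 islands, 2000 in control and 4619 after kd had a p-value deposited as 0. Positions are in bp from the GENCODE start site in the direction of the gene, negative values being upstream.

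Among the ligands, Bmp2 (chromosome 2, 133552159 to 133562885, plus strand) carried Ezh2 and H3K27me3 in both conditions. Bmp2 encodes a ligand of heart, bone and trophoblast development. Its strongest Ezh2 peak spanned -264 to 1427 bp with a score of 185 in control (87.7% of the list weaker). After kd it spanned -329 to 1434 bp with a score of 642 (93.3% weaker). A second Ezh2 peak further into the gene went from 163 to 180 in score, but from 85.0% to 60.9% in its place in the list. Smarca4 moved the other way. Its peak over the start site was 1617 bp wide in control with a score of 220 (91.5% weaker). After kd it was 655 bp wide with a score of 101 (69.4% weaker). A second control peak at 1986 to 2535 bp (score 79) had no counterpart. Smarca4 peaks covered 2167 bp of the control and 877 bp of the kd list in all. H3K27me3 covered 79.5% and 78.8% of the gene region, so the Polycomb domain kept its extent. The H3K4me3 island of 4400 bp was listed after kd as 2 islands of 1600 and 800 bp.

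Bmp4 (chromosome 14, 46383520 to 46390669, minus strand) encodes the ligand that is best known for posterior and extraembryonic fates. It had no Ezh2 peak in its gene region in control and 5 after kd, which covered 3185 bp or 39.1% of it. The strongest, at 1370 to 2608 bp, had a score of 197 (63.0% of the list weaker). The other 4 had scores of 44 to 86, and 1 of them spanned the start site from -116 to 286 bp. Another 2 kd-alone Ezh2 peaks lay outside the gene region, at 9935 to 10223 bp (score 44) and at -7965 to -7566 bp (score 33). The only Ezh2 peak of control in this window, at -16423 to -16136 bp (score 77), was 65.3% repeat-masked and had no counterpart after kd. The H3K27me3 domain of control consisted of an island of 13800 bp over the gene (-log10 p 153.6) and one of 2400 bp upstream (17.6). After kd a single island of 23000 bp with a p-value deposited as 0 spanned both and covered 100% of the gene region, against 91.8% in control. Around Bmp4 the number of Smarca4 peaks was 13 in control and 9 after kd, and the length they covered went from 9191 to 3392 bp. The strongest of them in control, upstream at -8700 to -7096 bp, had a score of 290 (95.2% weaker). Its kd counterpart at -8175 to -7396 bp had a score of 83 (61.8% weaker). The peak over the start site, 2709 bp wide in control, was replaced by 3 separate shorter peaks with scores of 28 to 64. An H3K27ac island of 4200 bp at -22531 to -18332 bp (-log10 p 8.8) was called in control alone. H3K4me3 covered 84.3% and 78.5% of the gene region, with a -log10 p of 140.1 in control and 97.4 after kd.

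The Bmp4 promoter is shown because the kd-alone Ezh2 peak at the start site overlaps 166 of the 300 bases of its RefSeq promoter. It is given as the 250 bases before the start (GRCm38, minus strand, chr14:46390670-46390919), with GTCT or AGAC in capitals.
Bmp4 promoter: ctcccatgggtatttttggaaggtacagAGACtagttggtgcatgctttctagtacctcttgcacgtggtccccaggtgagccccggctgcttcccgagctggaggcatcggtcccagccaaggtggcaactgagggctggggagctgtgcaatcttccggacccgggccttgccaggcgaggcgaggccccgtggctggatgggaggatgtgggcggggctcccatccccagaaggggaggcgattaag

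Bmp7 (chromosome 2, 172868012 to 172940321, minus strand) encodes a ligand of kidney and eye development and is one of the long genes of the group. Its single Ezh2 peak went from 1294 bp with a score of 124 (77.4% weaker) to 2133 bp with a score of 558 (90.9% weaker). Of the gene and its surroundings, 82910 bp lay in H3K27me3 islands in the control list and 35321 bp in the kd list. Islands inside the gene at 22521 to 34120 bp (-log10 p 35.6) and 54721 to 67520 bp (13.5) were listed in control alone, while the island over the start site had a p-value deposited as 0 in both lists. The domain over the start site was 43600 bp long in control and 19400 bp after kd, flanked there by shorter upstream islands. The number of Smarca4 peaks went from 18 to 10. Most of the Smarca4 peaks listed in control alone lay in or beyond the last part of the gene. The strongest control peak, also there at 67592 to 69392 bp, went from a score of 279 (94.7% weaker) to 67 (53.7% weaker). The H3K4me3 island at the start had a -log10 p of 104.9 in control and 254.8 after kd.

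Bmpr1a (chromosome 14, 34410734 to 34503341, minus strand), which encodes the receptor, carried next to no Polycomb signal. It had no Ezh2 peak, and the only H3K27me3 island within its window was 1600 bp long, lay at -15659 to -14060 bp and was listed in control alone with a -log10 p of 10.4. Smarca4 at its promoter was among the strongest of all peaks in both lists. The peak at 852 to 1748 bp had a score of 493 in control (99.2% of the list weaker) and the kd peak at 798 to 1644 bp a score of 448. The peak over the start site itself had scores of 423 and 517, the latter with 99.3% of the list weaker. An H3K27ac island of 2800 bp at -659 to 2140 bp was called after kd alone, with a -log10 p of 45.4 (92.8% of the list weaker) and 12.2% of its bases repeat-masked. Within 1 kb of the start site H3K27ac was called at 16.0% of protein-coding genes in control and at 30.9% after kd, and Bmpr1a was the only member among them. The other H3K27ac islands in the gene were intronic or over an inner exon. Their -log10 p did not exceed 14.3 in either list, and all of them were at least 39.5% repeat-masked. The H3K4me3 island was 4600 bp long in control and 3200 bp after kd, with a p-value deposited as 0 in both.

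**Figure D2:**
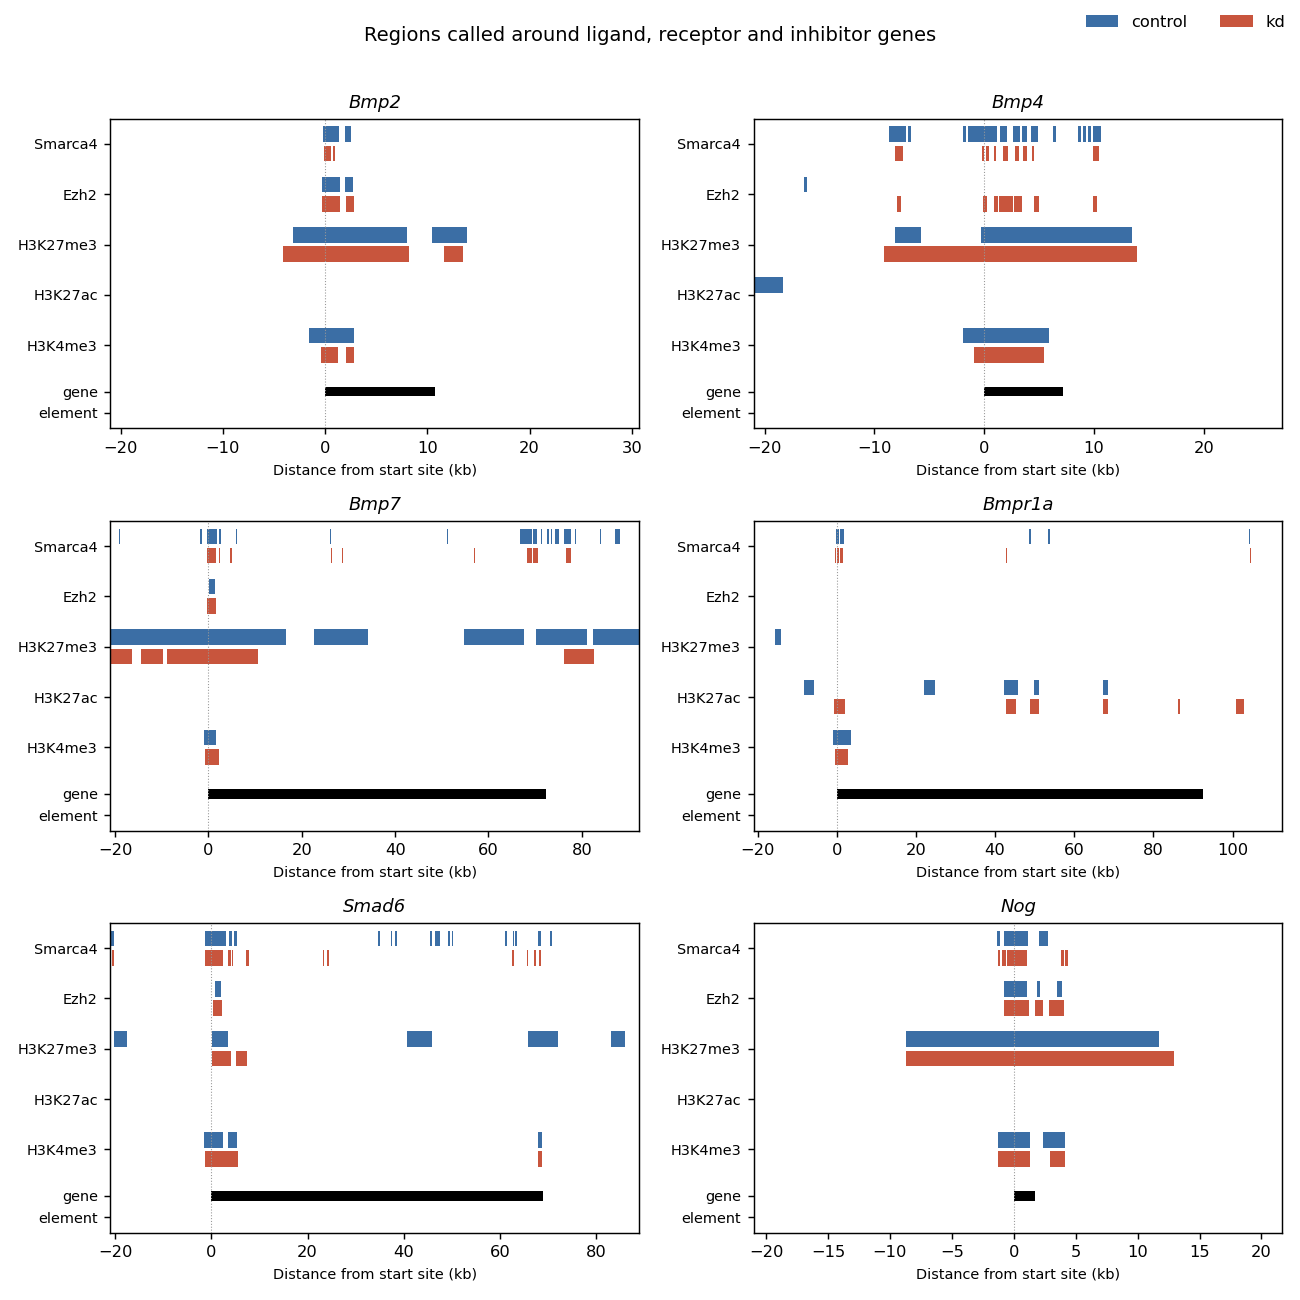
Peaks and islands around the ligand, receptor and inhibitor genes, plotted by distance from the start site in kb in the direction of the gene, cut at the ends of the window. Blue bars are control and red bars kd, with 1 pair of rows per antibody. The black bar is the gene. No element of GGCGCC, 5 bases and GTCT lies in these windows, so the element row is empty. Ezh2 bars over Bmp4 are red alone, and the H3K27ac bar over the Bmpr1a start is red alone.

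The Id genes are the classical immediate targets of BMP signalling. Smad complexes are known to bind a composite element in their regulatory sequence, made of GGCGCC, 5 bases of any kind and GTCT, in which the first part is read by Smad1 or Smad5 and the second by Smad4. Both strands of the 10 windows were searched for it. There were 7 matches, all of them around the Id genes. Windows of the same kind held a match for 509 protein-coding genes (2.32%), and the genome held 447 matches on the chromosomes used. The pattern is known from the Id genes, so finding it there is no separate result, and other Smad sites were not searched for. The matches are shown because Smarca4 lay on all of them in control. They stand in the order of the genes, 5′ to 3′ on the strand of the match with 7 bases on each side and with both parts in capitals.
Id1, 3220 bp (chr2:152739464-152739492, plus strand): gtacggaGGCGCCtggctGTCTgggcccg
Id2, 4082 bp (chr12:25093037-25093065, minus strand): tttgggtGGCGCCtgctaGTCTgccttgg
Id2, -1728 bp (chr12:25098847-25098875, minus strand): cgcgcctGGCGCCagagaGTCTgctccgg
Id3, -2957 bp (chr4:136140533-136140561, plus strand): ccaccctGGCGCCaggctGTCTggggctg
Id3, 1296 bp (chr4:136144786-136144814, plus strand): cctccctGGCGCCggccaGTCTgcggcat
Id3, 4484 bp (chr4:136147974-136148002, plus strand): gttcgctGGCGCCcggatGTCTgagctct
Id4, 1662 bp (chr13:48262883-48262911, plus strand): ggtcggtGGCGCCagttaGTCTgcagcga

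All sequences are from GRCm38. The elements at 1296 bp of Id3 and 1662 bp of Id4 are intronic, those at -1728 bp of Id2 and -2957 bp of Id3 are upstream of the gene, and the other 3 are downstream. A Smarca4 control peak covered 7 of the 7, and a Smarca4 kd peak 5 of them. Of all 447 matches 100 (22.4%) lay in a control peak and 100 (22.4%) in a kd peak. Smarca4 control peaks covered from 11.5% (Id4) to 37.5% (Id1) of the Id windows, so these are densely bound surroundings. The elements without a kd peak were Id2 at 4082 bp, where the control score was 29, and Id4 at 1662 bp, where it was 414. The nearest kd peak ended 12 bases before the Id4 element (score 109) and lay 355 bases from that of Id2. At the other 5 the scores went from 181 to 251 (Id1), from 269 to 332 (Id2, -1728 bp), from 64 to 20, 295 to 186 and 377 to 138 (Id3, in the order shown). Scores were thus higher after kd at the Id1 element and the upstream Id2 element and lower at the 3 of Id3. Places in the list went the same way, from 87.3% to 91.9% weaker at Id1 and from 94.2% to 96.1% at Id2. At Id3 they went from 47.4% to 1.8%, from 95.5% to 85.8% and from 97.8% to 78.7%. A kd-alone Ezh2 peak covered the intronic elements of Id3 and Id4. A kd-alone H3K27ac island covered the downstream element of Id3, and no Id element lay in an H3K27ac island of control.

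Id1 (chromosome 2, 152736251 to 152737410, plus strand) had the largest share of its window under Smarca4 peaks of all members, 37.5% in control and 32.6% after kd. The peak over its start site had a score of 493 in control (99.2% weaker) and 150 after kd (80.7% weaker), whereas its width was 1368 and 2317 bp. The H3K27me3 island over the start site, at -250 to 949 bp, was short (1200 bp) and weak (-log10 p 17.1, 29.8% of the list weaker) and was not listed after kd. Flanking H3K27me3 islands remained on both sides. The downstream one overlaps the start site of the neighbouring gene Cox4i2, which encodes a cytochrome c oxidase subunit, and went from 11800 to 6800 bp. The H3K4me3 island at the start had a -log10 p of 108.7 in control and 216.4 after kd.

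The upstream side of Id1 showed 3 changes in the same place. A Smarca4 peak of 3806 bp at -11129 to -7324 bp with a score of 493 in control overlapped 4 separate peaks after kd, of which the strongest, at -9405 to -7619 bp, had a score of 181. An H3K27ac island of 5400 bp at -10050 to -4651 bp (-log10 p 34.7, 87.6% of the list weaker, 22.2% repeat-masked) was called after kd alone. An H3K4me3 island of 2600 bp at -9250 to -6651 bp (-log10 p 20.0) was also called after kd alone, and it was the only H3K4me3 island of the 10 windows called in 1 condition alone. Altogether 1 H3K27ac island lay around Id1 in control and 6 after kd, covering 2000 and 11800 bp. Of the 6, 4 were at least 50% repeat-masked. The central 300 bases of the upstream control peak are shown because this peak was 1 of the 3 with the highest Smarca4 score around the members in control (chr2:152726875-152727174, GRCm38, plus strand, from -9376 to -9077 bp). They held no GGCGCC and 1 GTCT, in capitals.
Id1 upstream Smarca4 peak: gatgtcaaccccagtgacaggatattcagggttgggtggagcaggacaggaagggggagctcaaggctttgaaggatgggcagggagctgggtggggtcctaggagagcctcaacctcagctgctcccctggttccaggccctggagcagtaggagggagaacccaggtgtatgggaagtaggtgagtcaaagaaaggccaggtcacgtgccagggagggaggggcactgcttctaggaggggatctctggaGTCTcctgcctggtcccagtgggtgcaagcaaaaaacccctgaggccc
The centres of the other 2 peaks with this score, at the Bmpr1a promoter and the Id1 start, held 1 and 0 copies of GGCGCC. At least 1 copy was found in 9.09% of the central 300 bp of all control Smarca4 peaks.

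Id2 (chromosome 12, 25093799 to 25097140, minus strand) carried the weakest of the additional Ezh2 calls. Its gene region held a kd-alone peak of 248 bp at 1895 to 2142 bp with a score of 24, only 2.0% of the list being weaker. An upstream peak was listed in both conditions, with 267 bp and a score of 38 in control and 978 bp and a score of 288 after kd (74.5% weaker). H3K27me3 covered the whole gene region in both lists. The single control island of 16200 bp (-log10 p 170.4) was listed after kd as 2 islands, one of 5600 bp over the gene (70.5) and one of 8600 bp upstream (27.2), and the upstream Smad element lay in the gap between them. H3K4me3 showed a similar split, from 1 island of 9200 bp (192.8) into 3 of which the one over the start was 3000 bp long (72.4). Smarca4 covered 8123 and 6695 bp around Id2, in 15 peaks in control and 11 after kd. The GENCODE start of Id2 lies 1048 bp upstream of the RefSeq start.

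Id3 (chromosome 4, 136143497 to 136145755, plus strand) had a kd-alone Ezh2 peak at 225 to 1532 bp, inside its gene, with a score of 114 (46.3% weaker). The upstream Ezh2 peak shared by both conditions went from 437 bp and a score of 37 to 1064 bp and a score of 312 (77.3% weaker). Id3 lay in an H3K27me3 island of 44000 bp in control. After kd this island was replaced by 1 of 20200 bp, which ended at 5903 bp instead of 15303 bp downstream of the start, and 1 of 14200 bp further upstream. Smarca4 formed a single peak of 3686 bp over the gene in control (score 295), which overlapped 4 shorter peaks after kd, the strongest with a score of 186. No H3K27ac island lay in the window in control and 5 did after kd, of which 4 were called after kd alone and 1, at the edge, overlapped a control island beyond the window. The island at 3704 to 5103 bp (-log10 p 24.0) was 23.7% repeat-masked, and the other 4 were at least 50% repeat-masked. It lay within the H3K4me3 island that spans the gene, whose -log10 p was 70.0 in control and 178.4 after kd.

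Id4 (chromosome 13, 48261228 to 48266026, plus strand) had the strongest of the additional Ezh2 peaks, from -75 to 1928 bp with a score of 291 (75.5% of the list weaker). No Ezh2 peak lay anywhere in its window in control. A Smarca4 peak of 2179 bp with a score of 414 (98.4% weaker) covered nearly the same bases in control. After kd it was listed as 2 peaks with scores of 107 and 109 (71.8% weaker). Upstream of Id4, 5 Smarca4 peaks were listed in control and none after kd. The strongest, at -9253 to -8219 bp, had a score of 229 and lay in an H3K27ac island of 3000 bp at -10627 to -7628 bp (-log10 p 11.5), itself in control alone. A second control-alone H3K27ac island at -17227 to -13828 bp (13.2) held 2 of the other upstream Smarca4 peaks. Neither island was more than 23.6% repeat-masked. The H3K27me3 island over Id4 started at -27 bp in control and at -5227 bp after kd, so that it covered 0 bases of the RefSeq promoter in control and all 300 after kd. The control-alone H3K27ac and Smarca4 regions upstream lay beyond the new border of the domain. The H3K4me3 island at the start of Id4 had a -log10 p of 146.2 in control and 133.0 after kd.

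Around the Id genes H3K27ac thus moved in both directions. It was called at more places after kd around Id1 and Id3, at fewer around Id4, and nowhere around Id2. None of these islands lay in the gene region itself. The H3K27ac list was longer after kd (51100 against 39091 islands), and of 17605 protein-coding genes with an island in this window in either list 62.8% had more after kd and 13.8% fewer. Of the 5 members with an island, 3 had more (Bmpr1a, Id1 and Id3) and 2 fewer (Bmp4 and Id4). Of the 11 kd islands around Id1 and Id3, 8 were at least 50% repeat-masked.

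Id promoter sequence is shown for the bases before the RefSeq start that GENCODE does not annotate as exon, for Id2 89 bases (chr12:25096254-25096342, minus strand) and for Id4 250 bases (chr13:48260866-48261115, plus strand, GRCm38). GGCGCC and GTCT or AGAC are in capitals. The stretches are shown because each holds the first part of the Smad element. Neither printed stretch holds the second part, but the 300-base Id2 promoter holds 1 AGAC beyond the printed bases.
Id2 promoter: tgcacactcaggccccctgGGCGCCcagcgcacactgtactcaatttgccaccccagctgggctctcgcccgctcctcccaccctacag
Id4 promoter: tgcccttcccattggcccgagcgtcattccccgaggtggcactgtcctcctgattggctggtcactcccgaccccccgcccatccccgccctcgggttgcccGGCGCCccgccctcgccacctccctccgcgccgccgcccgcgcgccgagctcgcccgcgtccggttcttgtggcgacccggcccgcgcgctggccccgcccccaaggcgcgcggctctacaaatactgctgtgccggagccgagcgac
RefSeq promoters of 300 bases, 250 before and 50 after the start, were at hand for 6 members, Bmp4, Bmpr1a, Id2, Id3, Id4 and Smad6. GGCGCC occurred in those of Bmpr1a, Id2 and Id4, and in 11.9% of all 32851 promoters. GTCT or AGAC occurred in 5 of the 6, all but Id4, and in 88.0% of all promoters. The full element occurred in 0 of the 6 and in 24 of all (0.0731%). A match is a description of the sequence and does not show that a factor binds there. Promoters of Id1, Bmp2, Bmp7 and Nog were not analysed here.

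**Figure D3:**
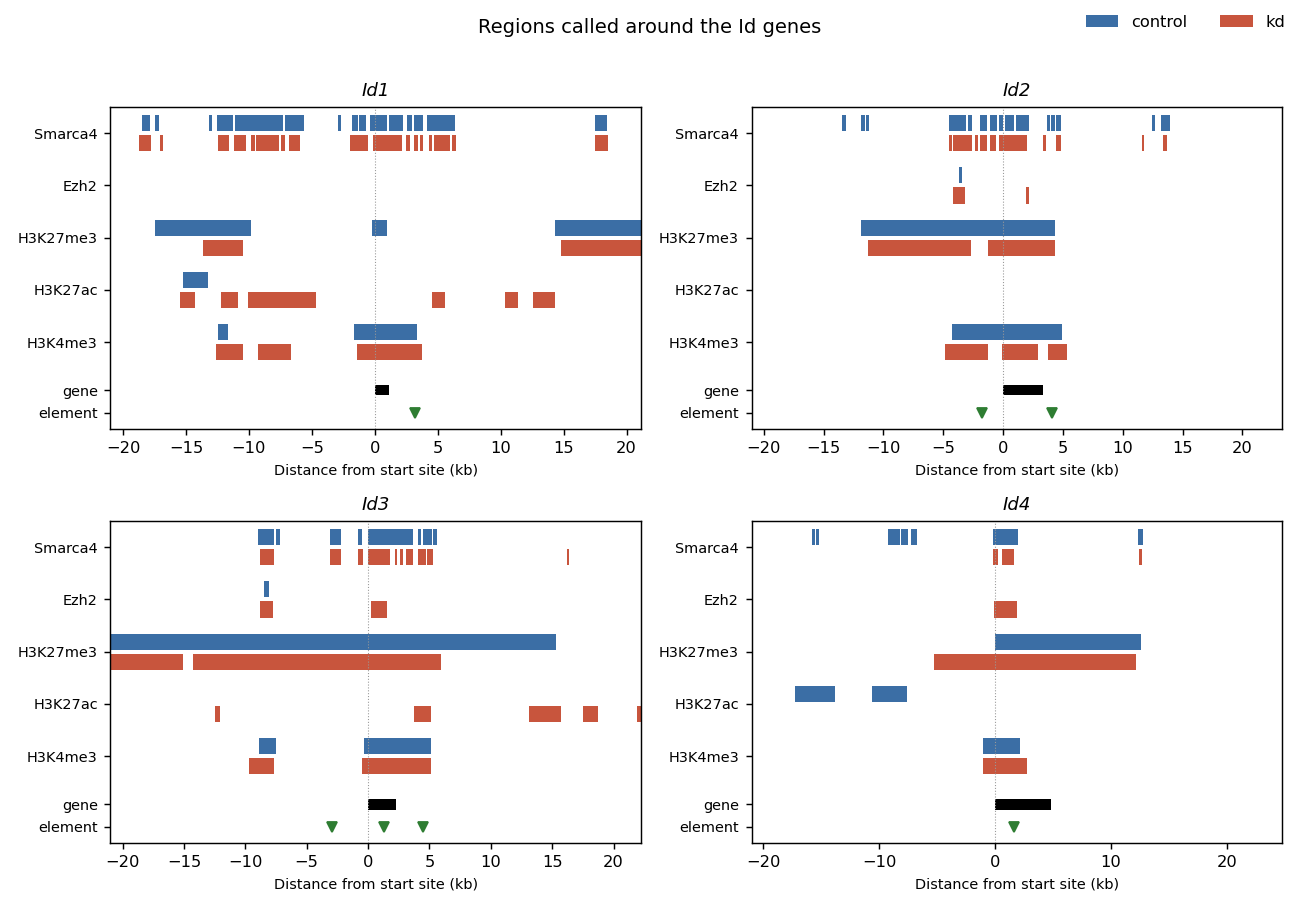
Peaks and islands around Id1, Id2, Id3 and Id4 by distance from the start site in kb, in the direction of the gene and cut at the ends of the window. Blue bars are control and red bars kd, with 1 pair of rows per antibody, black bars are the genes and green triangles the 7 elements of GGCGCC, 5 bases and GTCT. Ezh2 bars over Id3 and Id4 are red alone, H3K27ac is mostly red around Id1 and Id3 and blue alone upstream of Id4, and each triangle stands below a blue Smarca4 bar.

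Of the inhibitors, Smad6 (chromosome 9, 63953076 to 64022059, minus strand) had 1 Ezh2 peak near its start, which went from 1216 bp and a score of 109 (72.4% weaker) to 1980 bp and a score of 404 (84.0%). H3K27me3 islands covered 20600 bp of its window before and 6400 bp after kd. The domain at the start remained, with 3400 and 4000 bp, while 4 islands elsewhere with -log10 p of 10.5 to 35.7 were listed in control alone and 1 of 2400 bp next to the domain (18.2) after kd alone. Smad6 was, beside Bmpr1a, the only member at which the strongest Smarca4 score of the gene region was not lower after kd. Its control peaks at -17 to 2930 bp (score 314) and at -1343 to -174 bp (244) were joined after kd in a peak of 3837 bp with a score of 383 (97.6% weaker). In the window as a whole 18 Smarca4 peaks were listed in control and 11 after kd. The H3K4me3 islands near the start were 4000 and 1800 bp long in control and formed 1 island of 6800 bp after kd.

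Nog (chromosome 11, 89300638 to 89302332, minus strand) lay in a broad Polycomb domain in both conditions. An H3K27me3 island of 20400 bp in control and 21600 bp after kd, both with a p-value deposited as 0, covered all of its gene region. The Ezh2 peak over the start went from 1868 bp and a score of 184 (87.4% weaker) to 2025 bp and a score of 600 (92.1%). Both downstream Ezh2 peaks were shared, with scores of 25 and 100 in control and 95 and 230 after kd. By place in the list the first went from 4.1% to 38.9% weaker, and the second stayed at 67.8% and 67.6%. The Smarca4 peak over the start had scores of 361 and 320, and Smarca4 covered 2851 and 2508 bp of the window.

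Across the 10 genes, Smarca4 peaks covered less of the gene region and its 20 kb surroundings after kd at 10 of 10. Among 18618 protein-coding genes with a Smarca4 peak in either list this was so for 57.9%. Among the genes with H3K4me3 and H3K27me3 in control it was so for 68.9%, and for 9 of the 9 members of that kind. The kd length as a percent of the control length ranged from 35.7% (Id4) to 88.0% (Nog) with a median of 75.2% over the members, beside medians of 89.2% over all and 82.9% over the H3K4me3 and H3K27me3 genes. Bmp4 (36.9%), Bmp2 (40.5%) and Bmp7 (49.4%) followed Id4, so all 3 ligands lay in the lower part of the range. The other 3 Id genes were at 82.4% to 87.1%. In the gene region without its surroundings the length was smaller at 7 of 10 members and at 57.6% of genes. The other 3, Id1, Id2 and Nog, went from 1667 to 1732 bp, from 2611 to 2620 bp and from 1903 to 1909 bp. The strongest Smarca4 score of the gene region was lower after kd at 8 of 10 members and at 48.3% of genes with a peak in both lists. By place in the list it was lower at 8 of 10 and at 52.9%. In all windows together 104 Smarca4 peaks were listed in control and 83 after kd, and the full lists held 79014 and 72339.

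**Figure D4:**
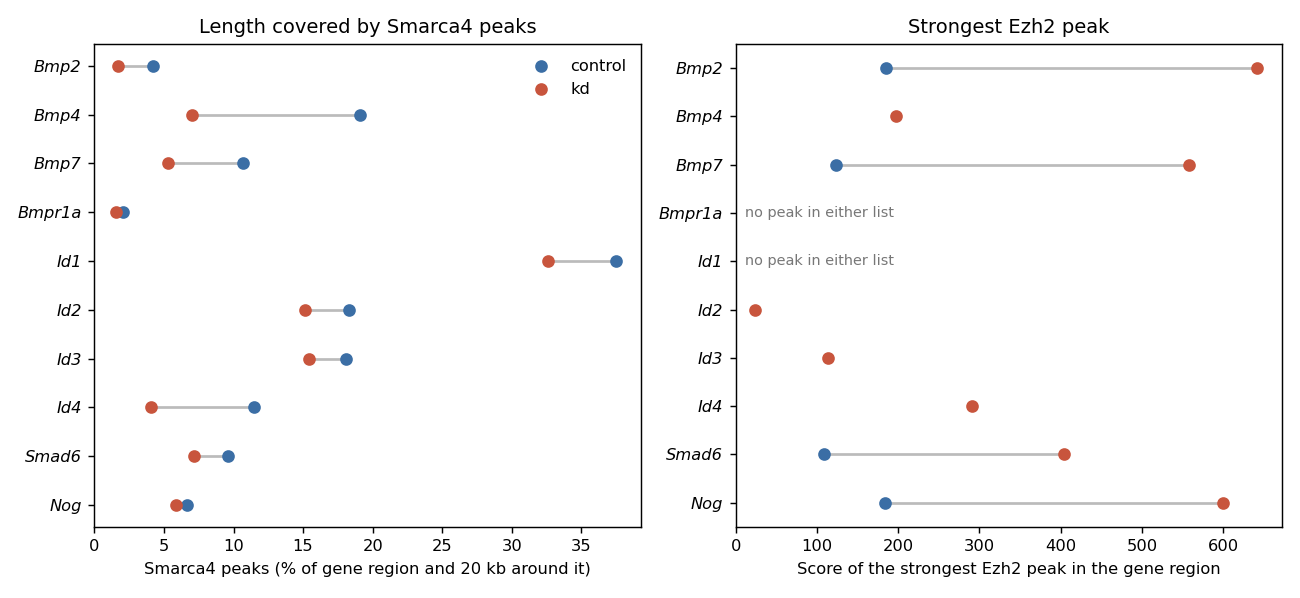
Left, percent of the gene region and 20 kb around it covered by Smarca4 peaks for each gene, control in blue and kd in red. Right, score of the strongest Ezh2 peak in the gene region on the same colours, with scores as deposited and not scaled between libraries. Smarca4 cover is lower after kd at all 10 genes, from 37.5% to 32.6% at Id1 to 2.09% to 1.58% at Bmpr1a. Ezh2 scores are higher after kd at the 4 genes with a peak in both lists, and single red points mark Bmp4, Id2, Id3 and Id4.

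Ezh2 went the other way. At the 4 members with a peak in both lists the strongest score was higher after kd, but so it was at 92.3% of all genes with a peak in both. By place in the list it was higher at 4 of 4 members and at 62.7% of genes. The length covered in the wider window was larger after kd at 8 of the 8 members with a peak in either list, beside 72.5% of genes. With H3K4me3 and H3K27me3 but no Ezh2 in control, 5 members were of the same starting state, namely Bmp4, Id1, Id2, Id3 and Id4. Of these, 4 had an Ezh2 peak after kd, and of the 4181 protein-coding genes in this state 1099 (26.3%) had one. When peaks below a score of 50 and islands below a -log10 p of 20 were left out, these counts were 3 of 4 members and 28.5% of genes. Id1 then no longer had the starting state, and the Id2 peak was lost. All of this rests on 1 pair of libraries, and the comparison by starting state was chosen after the values were seen.

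The kd-alone Ezh2 peaks lay where other regions were already listed in control. Of 10 such peaks in the windows, 10 lay in an H3K27me3 island of control, 10 overlapped a Smarca4 peak of control and 8 an H3K4me3 island of control. Of all 2651 kd-alone Ezh2 peaks, 93.1%, 86.3% and 66.2% did. After kd, 9 of the 10 overlapped a Smarca4 peak, beside 82.9% of all. These counts are therefore close to the general shares. Over all member windows 8 of 10 control Ezh2 peaks and 16 of 19 kd peaks overlapped a Smarca4 peak of the same condition, beside 44.5% and 86.6% of all Ezh2 peaks. The shares in H3K27me3 islands were 9 of 10 and 19 of 19, beside 63.1% and 94.3%. In the gene regions of Id4, Id3, Bmp4 and Id2 no Ezh2 peak was listed in control. After kd, Smarca4 and Ezh2 peaks overlapped there over 1463, 1308, 1239 and 66 bp.

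H3K27me3 covered less of the window after kd at 7 members, beside 72.2% of genes with an island in either list. The exceptions were Bmp4, Id4 and Nog, at which it covered more, 142% of the control length at Bmp4. H3K4me3 covered more after kd at 5 members, beside 52.3% of genes. The overlap of H3K4me3 and H3K27me3 in the gene region was 4342 bp at Id2 in control and 3000 bp after kd, 2200 and 3773 bp at Id4, 2555 and 2755 bp at Id3, and 1200 and 0 bp at Id1.

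By the 10 calls per gene (5 antibodies in 2 conditions), the members fell into 4 patterns. Bmp2, Bmp7, Smad6 and Nog shared 1 pattern with 958 protein-coding genes (4.37%, members included), with every call present except H3K27ac. Bmp4, Id2, Id3 and Id4 shared another with 477 genes (2.17%), which lacks Ezh2 in control. Id1 had the calls of 298 genes (1.36%), and Bmpr1a those of 3284 (15.0%), with no Ezh2 or H3K27me3 and with H3K27ac in both.

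A list of 42 other BMP pathway genes, of which 41 were found in the annotation, was counted in the same way. Over all protein-coding genes the shares in control and after kd were 12.6% and 15.4% for Ezh2 and 42.4% and 35.6% for H3K27me3. They were 32.4% and 48.2% for H3K27ac, 63.4% and 68.1% for H3K4me3, and 70.3% and 71.7% for Smarca4. Among the 41 pathway genes Ezh2 was called at 18 in control and 22 after kd, H3K27me3 at 31 and 30, and H3K27ac at 10 and 15. H3K4me3 was called at 32 and 35, and Smarca4 at 36 and 36. Of these genes 11 had all 10 calls in common with Bmp2, Bmp7, Smad6 and Nog, among them the ligand genes Bmp3, Gdf6 and Gdf7, the antagonist genes Fst, Grem1 and Nbl1 and the homeobox targets Msx1 and Msx2. The calls of Bmp4 and of the Id genes other than Id1 were shared by Bmp8b, a ligand gene, and Fstl1. Those of Id1 were shared by Twsg1, the gene of an extracellular BMP modulator, and those of Bmpr1a by Bmpr2, the type II receptor gene, Smurf2 and Tob1. Ezh2 after kd alone was found at Bmp8b, Bmpr1b, Acvr1, Acvrl1, Fstl1 and Hey1 (6 of 41), and in control alone at Bmp5 and Bambi. These states were held by 5.96% and 3.19% of protein-coding genes. With the starting state of H3K4me3 and H3K27me3 without Ezh2, 5 of 9 pathway genes had an Ezh2 peak after kd, beside 26.3% of protein-coding genes. H3K27me3 was listed in control alone at Smad1 and Twsg1 and after kd alone at Acvr2a, beside 9.74% and 2.95% of protein-coding genes. Of the 6 other receptor genes, 0 carried Ezh2 in control and 3 after kd, and H3K27ac was called at 4 and 6. Of the 12 antagonist genes 8 carried Ezh2 in control and 8 after kd, 7 of them in both lists, and of the 4 other targets 3 did in control and 4 after kd.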

How the data were processed

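ChIP-seq region lists of 10 libraries were used, and the 4 background libraries entered only through the authors' calling. The authors trimmed reads with Trim Galore, aligned them to mm10 with Bowtie2 and filtered them with SAMtools 1.9. Per the methods, Smarca4 and H3K27me3 were processed by Active Motif and the other antibodies in the authors' laboratory, and antibody and laboratory cannot be told apart. The deposited score of Smarca4 and Ezh2 peaks is that of MACS2. The deposited p-value of the islands is that of SICER, filtered by the authors. The methods and the titles of the 4 background libraries name input. IgG is named as background in other labels and in a figure caption of the paper, so which was used is uncertain here. The labels state a nominal read number, but the depth each library reached is not given in the sources used here.

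Groups came from the labels. Peaks and islands of the main chromosomes were intersected (at least 1 bp) with GENCODE M21 gene regions on GRCm38 in Python 3.11.15, and the overlap and motif searches were tested on simulated data. Repeat-masked means at least 50% lower-case reference bases. Promoters came from RefSeq (GRCm38.p6). No test was made, since there was 1 library per group. The named genes are the 10 members and, from a pathway list, genes with the calls of a member or with an Ezh2 or H3K27me3 call in 1 condition alone, up to 8 per group. Members, lists and rules were chosen with earlier results of these data known. Alternatives covered threshold, list length, gene window, overlap and repeats.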

Additional observations from a re-analysis of the deposited data

How the results depend on the processing

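Of 130 recomputed counts of members, 121 stayed within 1.5 times the reported count. With 20 kb on both sides counted as part of the gene, Ezh2 was called at 7 members in control and at 1 member, Id4, after kd alone, because peaks upstream of Bmp4, Id2 and Id3 then count. In this setting H3K27ac was called at 4 members in control and 3 after kd, at 2 (Bmp4 and Id4) in control alone and at 1 (Id3) after kd alone. The single member with H3K27me3 in control alone was then Bmpr1a instead of Id1. With 1 kb either side of the start site, H3K27ac was called at 0 members in control and at 1, Bmpr1a, after kd alone. With the stricter threshold, the H3K27me3 call of Id1 in control alone was lost (0 members). Under the same threshold and in the start-site window the additional Ezh2 calls were 3, without Id2. Lists of equal length, an overlap of at least 200 bp and leaving out repeat-masked regions kept all of the counts within this limit. The alternatives for covered length, strongest score and starting state were chosen after seeing the data. No paired analysis was possible because each group holds 1 library, and for the same reason no library could be left out. Unknown depth limits all calls, and a gene without a region is one where none was called, not one shown to lack the mark.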
